A study of Homo sapiens with 12 samples.

Results

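In all, 10 genes in 5 pairs were followed in 3 human hepatocellular carcinoma cell lines cultured with or without lactate. LANCL2, TRMT61A, FAM13B, ATAD3B and SURF2 were selected because their transcripts were lower with lactate in these libraries. LANCL1, TRMT6, FAM13A, ATAD3A and SURF1 were added as their paralogues or partners, whatever their own response. All 10 were found by symbol among 62710 genes, and all 10 were among the 18355 genes with enough counts to be tested. The lactate values of the 5 selected genes are therefore given as a description without a p-value, and only the paralogues and partners were tested for lactate.

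The lines were HLF, SNU475 and PLC/PRF/5, which are established lines of liver cancer. Each was sequenced as 2 control libraries and 2 libraries from cells given 20 mM lactate (added as lactic acid) over 24 h, making 12 libraries in 6 groups. The labels name no vehicle or pH control for the acid, and nothing says that a group's 2 libraries are separate cultures. The p-values therefore rest on library-to-library spread that could be technical. Library totals were between 16533437 and 22187849 estimated counts. The share of counts from mitochondrially encoded genes was between 3.39% and 15.05%, and it was highest in both SNU475 libraries numbered 2 (15.05% in the control and 13.88% with lactate, against 7.996% and 8.5% in those numbered 1). Of 11 hepatocyte markers, 9 were under a mean of 1 CPM in HLF and 8 in SNU475, and APOA1, APOB and TTR were at 0 counts in both of these lines. In PLC/PRF/5 none of the 11 was under 1 CPM, with a summed level of 3540 to 7200 CPM. In such bulk libraries, fewer cells of a kind and less RNA per cell cannot be told apart.

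The 5 pairs belong to different pathways. LANCL1 and LANCL2 are cytosolic relatives of bacterial lanthipeptide cyclases that bind glutathione and add it to reactive dehydroamino acids in damaged proteins. TRMT61A is the catalytic subunit, and TRMT6 the tRNA-binding subunit, of the enzyme that methylates an adenosine in the T loop of transfer RNAs. FAM13A and FAM13B are paralogous cytoplasmic proteins. ATAD3A and its neighbouring copy ATAD3B encode ATPases of the mitochondrial inner membrane that sit close to mitochondrial DNA. SURF1 is an assembly factor of cytochrome c oxidase, mutated in Leigh syndrome, and SURF2 is a nucleolar protein that binds the ribosomal 5S particle. SURF1 and SURF2 are not related in sequence but start back to back in the surfeit gene cluster. All 10 are protein-coding, on chromosomes 7 (LANCL2), 2 (LANCL1), 14 (TRMT61A), 20 (TRMT6), 5 (FAM13B), 4 (FAM13A), 1 (ATAD3A and ATAD3B) and 9 (SURF1 and SURF2).

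Averaged over the lines with equal weights, the selected genes were lower with lactate by log2 differences of -0.89 to -1.11, a level 1.85 to 2.16 times lower. These values chose the genes. TRMT61A was second and SURF2 ninth by size among the 21 genes called lower by edgeR's quasi-likelihood test (Benjamini-Hochberg adjusted p under 0.05), which are 0.114% of the genes tested. That list is of the main fit, and many of the alternative fits described below did not call the selected genes. CLN6 at -0.90 and PTDSS1 at -0.79 stood just above and just below SURF2 at -0.89 and were not selected. The 5 paralogues and partners took 3 courses: LANCL1 was higher, TRMT6 and ATAD3A were lower, and FAM13A and SURF1 overlapped between control and lactate in HLF and SNU475. None of the 5 passed the edgeR test of the mean lactate effect, which called 0.42% of all genes either way, although LANCL1, TRMT6 and ATAD3A had an unadjusted p under 0.05, as 15.8% of all genes did. With the replicate number as a block, 3 of the 5 passed (LANCL1, TRMT6 and ATAD3A), where 6.91% of all genes did, and the same 3 passed with DESeq2, where 5.16% did.

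**Figure D1:**
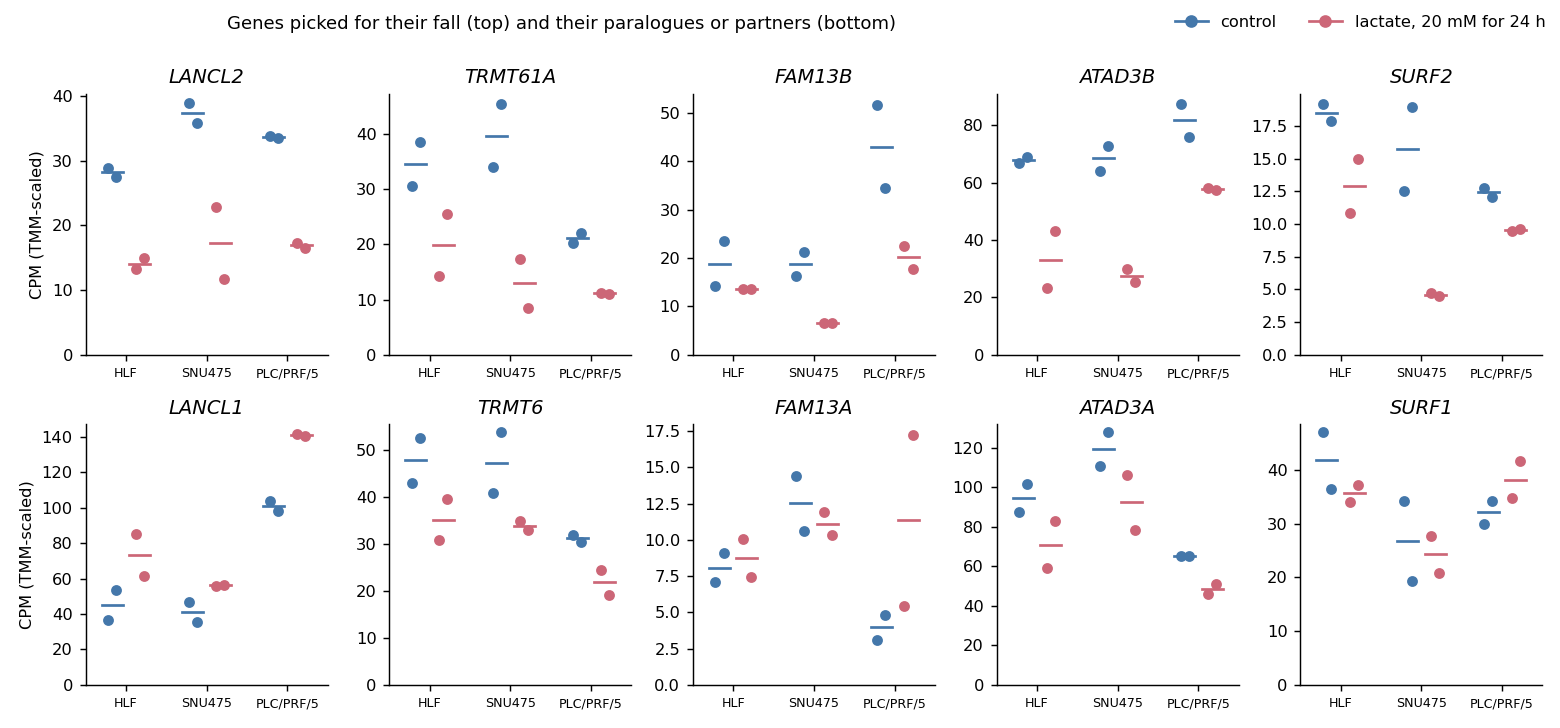
Level of each gene (CPM, TMM-scaled) in each of the 12 libraries, with control libraries in blue, lactate libraries in red and a bar at the mean of the 2 libraries. The selected genes are on top, and below them LANCL1 lies higher, TRMT6 and ATAD3A lower, with lactate in all 3 lines.

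In the order of the libraries on the CPM scale, both lactate libraries lay below both controls in all 3 lines for 7 of the 10 genes. That order was seen in 3.37% of all genes, and the 5 selected genes, taken for their fall, make up most of the 7. Among the 5 paralogues and partners it held for 2, TRMT6 and ATAD3A. LANCL1 lay above both controls in all 3 lines, an order seen in 2.72% of all genes. In the deposited TPM (level per length), LANCL2, ATAD3B and SURF2 kept the lower order in all 3 lines. TRMT61A, FAM13B, TRMT6 and ATAD3A overlapped between control and lactate in HLF, and ATAD3A also in SNU475. LANCL1 overlapped in SNU475, with 16.2 and 11.3 TPM with lactate against 12.6 and 7.4 TPM in the controls. The shares of all genes were taken on the CPM scale only.

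LANCL2, the membrane-associated member of the glutathione-binding pair, was lower in each line. On the CPM scale (counts scaled to library size), the HLF libraries had 28.8 and 27.5 in the control libraries and 13.2 and 14.9 with lactate. In SNU475 the controls had 38.9 and 35.8 CPM and the lactate libraries 22.8 and 11.7 CPM. The PLC/PRF/5 controls had 33.8 and 33.5 CPM and the lactate libraries 17.3 and 16.5 CPM. The groups did not overlap in any line, and only the SNU475 lactate libraries were far apart. The log2 difference was -1.0 ± 0.27 (SE) in both HLF and PLC/PRF/5 and -1.11 ± 0.28 in SNU475, with a mean of -1.04 ± 0.16. The SNU475 value was -0.72 without lactate library 2 and -1.68 without lactate library 1, and -0.78 without both libraries numbered 2.

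LANCL1, the more abundant paralogue in PLC/PRF/5, went the other way. In HLF its controls had 36.5 and 53.4 CPM and its lactate libraries 84.9 and 61.5 CPM. In SNU475 they had 46.7 and 35.3 CPM against 55.9 and 56.3 CPM. Its PLC/PRF/5 libraries had 104.1 and 98.3 CPM against 141.8 and 140.5 CPM. No lactate library overlapped a control of its line. The log2 difference averaged 0.55 ± 0.13, with 0.70 ± 0.23 in HLF, 0.48 ± 0.23 in PLC/PRF/5 and 0.45 ± 0.23 in SNU475. With a library left out the HLF value was between 0.47 (lactate 1) and 1.0 (control 2), and the SNU475 value was 0.26 without control 2. This did not pass the main test (edgeR adjusted p = 0.0915), but it passed with the replicate block (adjusted p = 0.028) and with DESeq2 (adjusted p = 0.00604). Per length, the ratio of LANCL2 to LANCL1 in TPM, the deposited level per length, averaged 1.31 ± 0.504 (SD, n = 2) in HLF controls and 0.42 ± 0.0918 with lactate. In SNU475 it averaged 1.99 ± 0.485 and 0.747 ± 0.112, and in PLC/PRF/5 0.578 ± 0.0292 and 0.196 ± 0.0291. LANCL2 was thus the more abundant of the pair per length only in the untreated SNU475 libraries and in 1 of 2 untreated HLF libraries.

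The subunits of the tRNA methyltransferase both lay lower with lactate. The catalytic one did so by more, an order favoured by its selection for a fall. TRMT61A had 30.6 and 38.5 CPM in HLF controls and 14.2 and 25.5 CPM with lactate. In SNU475 it had 34.0 and 45.3 CPM in the controls and 17.4 and 8.48 CPM with lactate. In PLC/PRF/5 it had 20.2 and 22.04 CPM in the controls and 11.2 and 11.1 CPM with lactate. Every lactate library was below both controls of its line, and the lactate libraries of HLF and of SNU475 differed widely from each other. The log2 difference was -1.62 ± 0.36 in SNU475, -0.92 ± 0.35 in PLC/PRF/5 and -0.80 ± 0.35 in HLF, with a mean of -1.11 ± 0.20. The HLF value was -0.42 without lactate library 1 and -1.29 without lactate library 2. Without both SNU475 libraries numbered 2, which have the highest mitochondrial share, the SNU475 value was -0.98 and the mean -0.90.

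TRMT6 had 43.0 and 52.4 CPM in HLF controls and 30.8 and 39.4 CPM with lactate. SNU475 levels were 40.7 and 53.6 CPM in the controls and 34.8 and 32.9 CPM with lactate. The PLC/PRF/5 levels were 31.9 and 30.4 CPM in the controls and 24.4 and 19.2 CPM with lactate. The groups were separate in each line. The log2 difference was -0.52 ± 0.22 in PLC/PRF/5, -0.48 ± 0.22 in SNU475 and -0.44 ± 0.22 in HLF, with a mean of -0.48 ± 0.13. Single libraries moved it, in HLF to -0.26 without lactate 1 and -0.29 without control 2, and in SNU475 to -0.27 without control 2 and -0.24 without both libraries numbered 2. The adjusted p was 0.111 in the main edgeR fit, 0.0255 with the replicate block and 0.0157 with DESeq2. The TPM ratio of TRMT61A to TRMT6 was 0.607, 0.655 and 0.579 in HLF, SNU475 and PLC/PRF/5 controls, and 0.47, 0.315 and 0.443 with lactate. The untreated lines were thus close to one another in this ratio, which had an SD of 0.0302 to 0.0615 over the 2 control libraries of a line.

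The promoter windows of the 2 subunit genes are shown because their transcripts were lower together. Each runs from 250 bases before to 50 after the RefSeq start site (GRCh38.p14), at chr14:103528946-103529245 on the plus strand for TRMT61A and at chr20:5950484-5950783 on the minus strand for TRMT6. Capitals mark matches, on either strand, to the E-box CACGTG, the ETS motif CCGGAAG and the NF-Y motif CCAAT.
TRMT61A: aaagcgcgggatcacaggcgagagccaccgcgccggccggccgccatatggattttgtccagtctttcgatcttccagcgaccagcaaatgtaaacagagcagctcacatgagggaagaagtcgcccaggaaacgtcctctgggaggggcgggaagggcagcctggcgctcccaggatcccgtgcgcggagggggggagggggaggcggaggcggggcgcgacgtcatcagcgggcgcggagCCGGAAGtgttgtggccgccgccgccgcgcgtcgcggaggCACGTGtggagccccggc
TRMT6: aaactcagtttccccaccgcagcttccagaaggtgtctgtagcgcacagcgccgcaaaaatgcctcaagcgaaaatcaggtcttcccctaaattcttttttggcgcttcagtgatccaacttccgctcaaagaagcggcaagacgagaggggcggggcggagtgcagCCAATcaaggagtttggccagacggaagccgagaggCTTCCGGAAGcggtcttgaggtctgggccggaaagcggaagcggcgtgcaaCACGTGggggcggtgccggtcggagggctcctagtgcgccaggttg
Both windows hold a CACGTG just inside the transcript, starting at base 33 in TRMT61A and at base 5 in TRMT6. This motif is in 7.26% of the 35116 windows of the table. It was also in a window of FAM13A, 48 bases before the start, and in no window of FAM13B, ATAD3A, LANCL1 or SURF1. CCGGAAG matched 8 bases before the TRMT61A start. In TRMT6 it matched 47 and 44 bases before the start, as overlapping copies on opposite strands. It is in 10.3% of all windows. TRMT6 also holds a CCAAT, found in 34.6% of windows, 83 bases before the start. The GC box GGGCGG, in 45% of windows and not capitalised, matched once in TRMT61A and 3 times in TRMT6. Neither window matched the cyclic-AMP motif TGACGTCA (1.85% of windows), the ATF4 motif TGATGCAA (0.866%) or the NRF1 motif (5.78%). No binding was measured here.

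FAM13B was lower in all lines and least so in HLF. Its HLF controls had 14.2 and 23.6 CPM and its lactate libraries 13.7 and 13.6 CPM. In SNU475 the controls had 16.2 and 21.3 CPM and the lactate libraries 6.47 and 6.58 CPM. The controls of PLC/PRF/5 had 51.6 and 34.5 CPM and the lactate libraries 22.5 and 17.8 CPM. Both lactate libraries lay below both controls in each line, but in HLF the gap to the lower control was under 1 CPM. The log2 difference was -1.52 ± 0.31 in SNU475, -1.10 ± 0.29 in PLC/PRF/5 and -0.47 ± 0.29 in HLF, with a mean of -1.03 ± 0.17. The HLF value was -0.06 without control 2 and -0.76 without control 1, and the PLC/PRF/5 value was -0.78 without control 1.

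FAM13A, the paralogue best known from genetic studies of lung function, overlapped between control and lactate in HLF and SNU475. It had 7.11 and 9.06 CPM in HLF controls and 10.1 and 7.47 CPM with lactate. In SNU475 it had 14.4 and 10.6 CPM in the controls and 11.9 and 10.3 CPM with lactate. In PLC/PRF/5 it had 3.10 and 4.83 CPM in the controls and 5.46 and 17.3 CPM with lactate. In PLC/PRF/5 both lactate libraries lay above the controls, but a single lactate library stood far above the rest. The PLC/PRF/5 difference of 1.51 ± 0.48 on the log2 scale became 0.46 without that library. The mean was 0.49 ± 0.27 (edgeR adjusted p = 0.41, and 0.156 with the replicate block), and the difference between lines did not pass the interaction test (unadjusted p = 0.059, adjusted p = 1). Its estimated count was a whole number in 1 of 12 libraries and that of FAM13B in 7 of 12, so RSEM divided some of their reads with other genes, although the pair share no 50-base stretch in the GENCODE v29 transcripts.

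**Figure D2:**
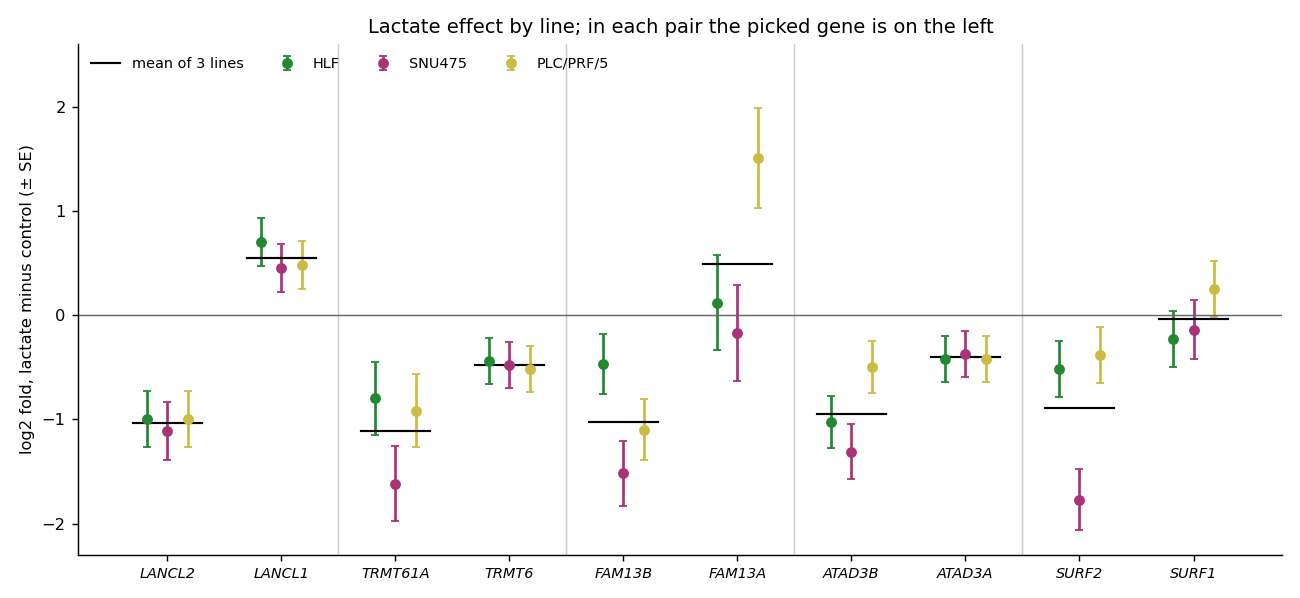
Lactate minus control difference (log2, ± SE from the edgeR fit) of the 10 genes in each line, with a black bar at the mean of the 3 lines. The selected gene is on the left of each pair, and SURF2 in SNU475, at -1.77, and FAM13A in PLC/PRF/5, at 1.51, stand apart from the other lines' values.

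The mitochondrial ATPase genes both lay lower with lactate, and the split between them changed in HLF and SNU475. ATAD3B was selected for its fall, so its lower share of the pair follows in part from that choice. ATAD3B had 66.8 and 68.9 CPM in HLF controls and 23.4 and 43.0 CPM with lactate. The SNU475 libraries had 64.0 and 72.8 CPM in the controls and 29.9 and 25.4 CPM with lactate. PLC/PRF/5 had 87.6 and 75.9 CPM in the controls and 58.0 and 57.3 CPM with lactate. The groups were separate in each line, with the smallest gap in PLC/PRF/5. The log2 difference was -1.31 ± 0.26 in SNU475, -1.03 ± 0.25 in HLF and -0.50 ± 0.25 in PLC/PRF/5, with a mean of -0.95 ± 0.15. The HLF value was -0.65 without lactate library 1 and -1.54 without lactate library 2.

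ATAD3A had 87.7 and 101.8 CPM in HLF controls and 59.0 and 82.8 CPM with lactate. SNU475 had 110.7 and 127.8 CPM in the controls and 106.4 and 78.5 CPM with lactate. PLC/PRF/5 libraries had 65.1 and 65.0 CPM in the controls and 46.0 and 51.1 CPM with lactate. Again no lactate library reached a control of its line, although 1 SNU475 lactate library came close. In log2 terms the differences were -0.42 ± 0.22 in HLF and PLC/PRF/5 and -0.37 ± 0.22 in SNU475, with a mean of -0.40 ± 0.12. The adjusted p was 0.148 in the main edgeR fit, 0.0406 with the replicate block and 0.0437 with DESeq2. The HLF value was -0.18 without lactate 1 and -0.69 without lactate 2, and the SNU475 value -0.60 without lactate 1 and -0.17 without lactate 2. Without both SNU475 libraries numbered 2 the mean was -0.30 and the SNU475 value -0.07.

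Reads of this pair cannot be fully told apart. In the GENCODE v29 transcripts, 28.2% of the 50-base stretches of ATAD3A also occur in ATAD3B, and 11.1% of those of ATAD3B occur in ATAD3A. Neither gene had a whole-number estimated count in any of the 12 libraries, so the split between them is partly an estimate. ATAD3B took 43.2% and 40.3% of the pair's counts in HLF controls and 28.3% and 34.2% with lactate. It took 36.6% and 36.3% in SNU475 controls and 21.9% and 24.4% with lactate. In PLC/PRF/5 it took 57.3% and 53.8% in the controls and 55.8% and 52.9% with lactate, which overlap. The sum of ATAD3A, ATAD3B and the nearly silent ATAD3C does not depend on that split. It was lower with lactate, by -0.64 ± 0.22 on the log2 scale in HLF and in SNU475 and by -0.47 ± 0.22 in PLC/PRF/5, a mean of -0.58 ± 0.13. Since ATAD3B is part of the sum, it is also given without a test.

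**Figure D3:**
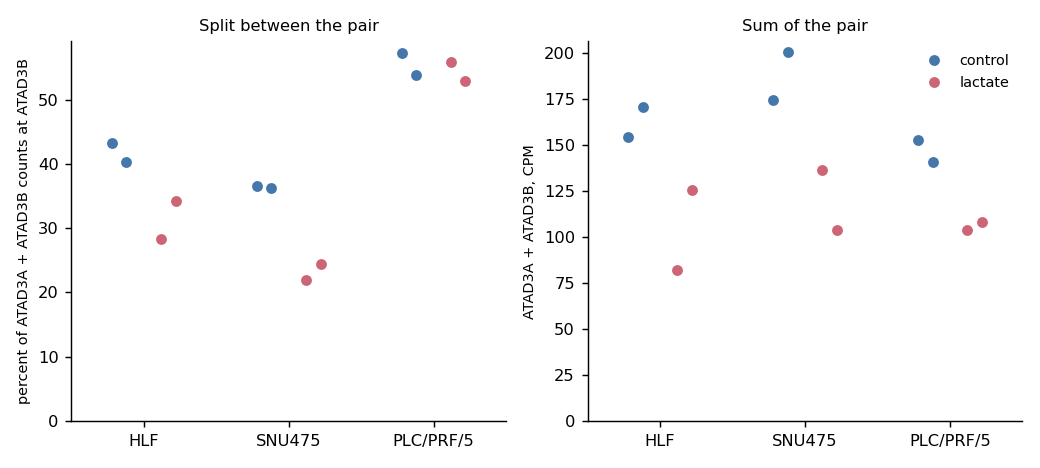
Share of the ATAD3A and ATAD3B estimated counts that were assigned to ATAD3B (left, percent) and the sum of both genes (right, CPM) in each library, with controls in blue and lactate in red. The share was lower with lactate in HLF and SNU475 and overlapped in PLC/PRF/5, where it was 52.9% to 57.3%. The sum was lower in all 3 lines, and the selection of ATAD3B for its fall favours both orders.

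SURF2 had its largest difference in SNU475. In that line it had 12.5 and 18.9 CPM in the controls and 4.73 and 4.48 CPM with lactate. In HLF it had 19.2 and 17.9 CPM in the controls and 10.8 and 15.0 CPM with lactate. Levels in PLC/PRF/5 were 12.7 and 12.1 CPM in the controls and 9.48 and 9.62 CPM with lactate. All 3 lines were separate, but by a much wider margin in SNU475. Its log2 difference was -1.77 ± 0.29 in SNU475 against -0.52 ± 0.27 in HLF and -0.38 ± 0.27 in PLC/PRF/5, with a mean of -0.89 ± 0.16. Without both SNU475 libraries numbered 2 the SNU475 value was -1.42 and the mean -0.77, and without HLF lactate 1 the HLF value was -0.29.

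SURF1, which starts beside it, did not follow. It had 47.1 and 36.5 CPM in HLF controls and 34.1 and 37.2 CPM with lactate. Its SNU475 levels were 34.2 and 19.3 CPM in the controls and 27.7 and 20.9 CPM with lactate. Its levels in PLC/PRF/5 were 29.99 and 34.3 CPM in the controls and 34.8 and 41.6 CPM with lactate. HLF and SNU475 overlapped, and in PLC/PRF/5 the lactate libraries were slightly the higher. The mean log2 difference was -0.04 ± 0.16 (edgeR adjusted p = 1), and its sign changed between settings. The TPM ratio of SURF2 to SURF1 averaged 0.742, 0.974 and 0.615 in HLF, SNU475 and PLC/PRF/5 controls and 0.548, 0.284 and 0.384 with lactate.

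The window around the SURF1 start is shown because it also holds the start of SURF2. It lies at chr9:133356438-133356737 (GRCh38.p14, RefSeq) and is written on the minus strand, in the direction of SURF1. The RefSeq starts of the 2 genes are 62 bases apart, and 188 of the 300 bases lie in SURF2, which is transcribed the other way. Capitals mark the ETS motif CCGGAAG.
SURF1: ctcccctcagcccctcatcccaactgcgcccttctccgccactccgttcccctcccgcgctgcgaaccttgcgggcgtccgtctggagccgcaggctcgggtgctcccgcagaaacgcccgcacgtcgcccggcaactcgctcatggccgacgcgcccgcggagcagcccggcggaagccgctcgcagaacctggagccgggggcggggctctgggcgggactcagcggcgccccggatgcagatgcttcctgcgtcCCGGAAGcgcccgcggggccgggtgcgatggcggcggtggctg
The single CCGGAAG began at base 8 of the SURF1 transcript. GGGCGG matched 49 and 37 bases before the start, between the 2 genes. The other motifs searched in the TRMT windows had no match on either strand here. Windows for LANCL2, ATAD3B and SURF2 themselves were not in the table.

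Set side by side, the pairs mostly shifted toward the gene that had not been selected, an order that the selection itself favours. Both lactate libraries had a lower TPM ratio of selected gene to paralogue or partner than both controls in 14 of 15 combinations of pair and line, and ATAD3B over ATAD3A in PLC/PRF/5 was the exception. The selected gene is the numerator in each, so this order follows in part from how the genes were chosen. How often other pairs of genes show it was not computed. The widest shift was that of FAM13B over FAM13A in PLC/PRF/5, from 10.2 and 5.02 to 2.93 and 0.836. It rests in part on the uneven FAM13A libraries there. Across the 12 libraries, the Pearson correlation of log2 CPM within a pair was 0.835 for TRMT61A and TRMT6, 0.369 for SURF2 and SURF1, 0.0726 for ATAD3B and ATAD3A, -0.343 for LANCL2 and LANCL1 and -0.64 for FAM13B and FAM13A. These correlations are descriptive, since the libraries share lines and treatments.

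**Figure D4:**
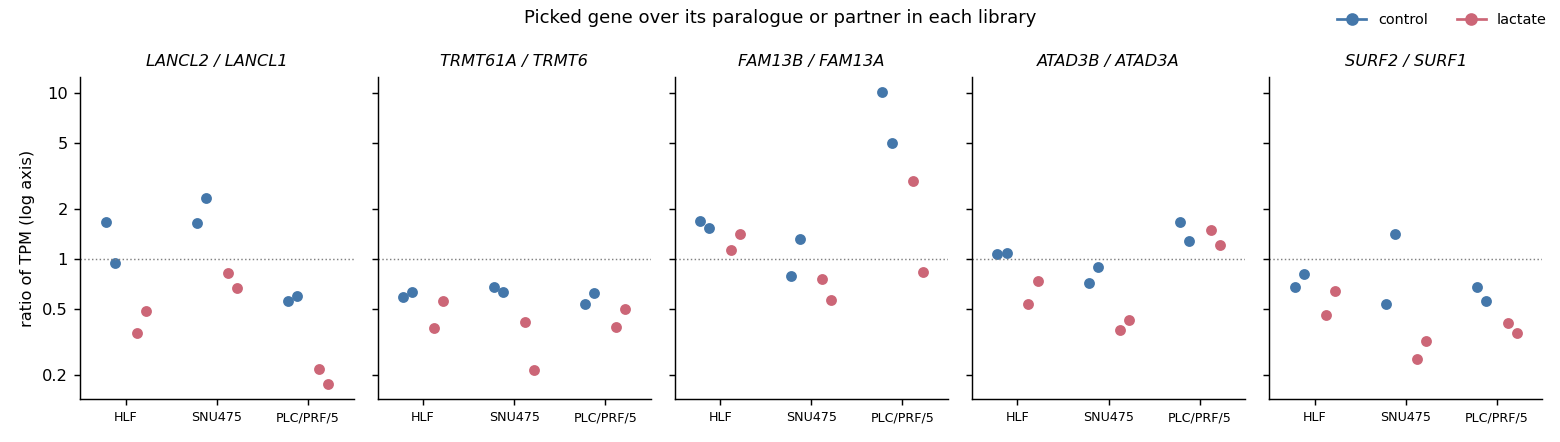
Ratio of deposited TPM of each selected gene to its paralogue or partner in each library (log axis), with controls in blue, lactate in red and a dotted line at equal levels. The lactate libraries lie below the controls of their line in 14 of 15 cases, in part because the numerators were selected for their fall.

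Whether the lactate effect differed between lines was tested for the 5 paralogues and partners. No gene in the whole set passed edgeR's interaction test (0% called, 3.51% at an unadjusted p under 0.05), and DESeq2 called 9. The unadjusted p was 0.702 for LANCL1, 0.973 for TRMT6, 0.059 for FAM13A, 0.98 for ATAD3A and 0.45 for SURF1, and the adjusted p was 1 for each. The differences between lines described for SURF2, TRMT61A and FAM13B were not tested, because those genes had been selected on the same libraries.

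Untreated levels are the control side of the lactate contrast that chose the selected genes, so they are not a separate readout. The differences between untreated lines were not themselves used in that choice. Per length, the ATAD3 and SURF genes had the highest mean TPM of the 10 in the controls of each line. FAM13A had the lowest, level with FAM13B in SNU475. Mean TPM in HLF, SNU475 and PLC/PRF/5 was 56.2, 43.3 and 64.4 for ATAD3B, 52.3, 54.4 and 44.0 for ATAD3A, and 60.0, 34.1 and 57.8 for SURF1. It was 44.7, 27.7 and 35.3 for SURF2, 23.3, 20.6 and 18.2 for TRMT6, and 14.3, 13.4 and 10.5 for TRMT61A. LANCL2 had 16.5, 19.0 and 20.1 TPM and FAM13A 3.16, 3.68 and 1.94 TPM. In 2 genes the PLC/PRF/5 controls stood above all others. LANCL1 had 14.1 and 9.98 TPM in HLF and SNU475 against 34.8 in PLC/PRF/5, and FAM13B 5.01 and 3.63 against 13.8.

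**Figure D5:**
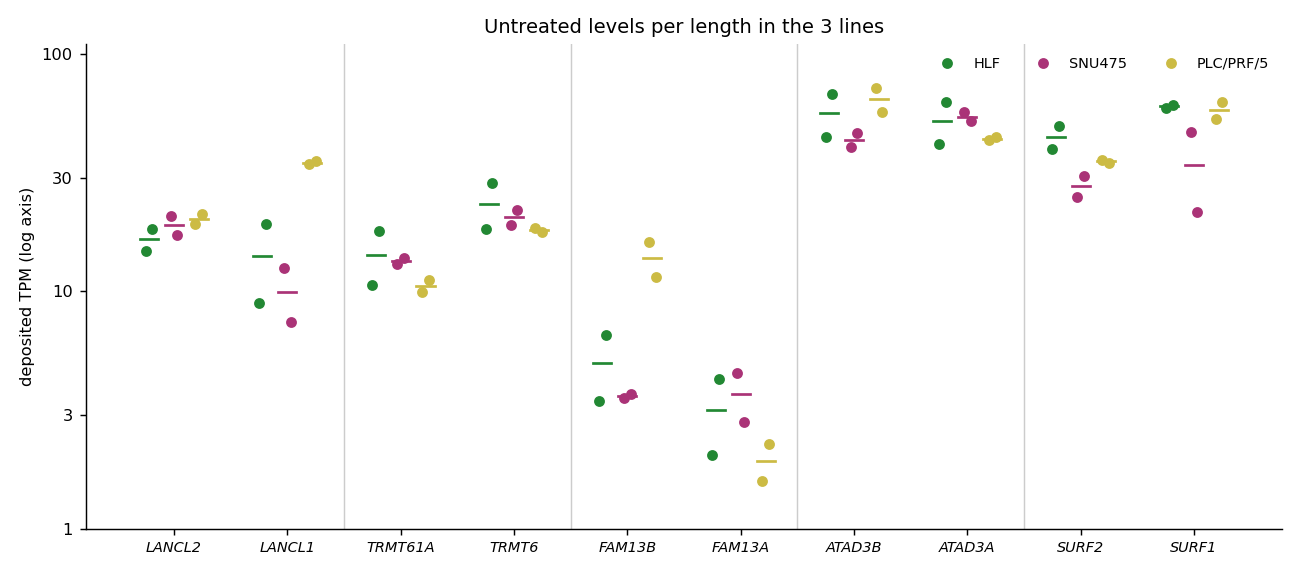
Deposited TPM of the 10 genes in the untreated libraries of HLF, SNU475 and PLC/PRF/5 (log axis), with a point per library and a bar at the mean of 2. LANCL1 and FAM13B are highest in PLC/PRF/5, while the points of neighbouring lines lie close together or overlap for most other genes.

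Between untreated HLF and SNU475 none of the 10 genes was called by edgeR, DESeq2 or limma-voom, while edgeR called 39% of all genes. SURF1 alone had an unadjusted p under 0.05 (log2 0.64 ± 0.28, adjusted p = 0.0854). It passed without SNU475 control 1 (1.12, adjusted p = 0.0135), and with other libraries left out the adjusted p reached 0.503. Between PLC/PRF/5 and HLF 3 of 10 were called, where 43% of all genes were, and between PLC/PRF/5 and SNU475 6 of 10, where 48.7% were. TRMT61A, ATAD3A and FAM13A passed in PLC/PRF/5 against HLF in some fits without 1 lactate library of another group (lowest adjusted p 0.0433, 0.0332 and 0.04). LANCL1 was 2.25-fold higher in PLC/PRF/5 than in HLF (log2 1.17 ± 0.23, edgeR adjusted p = 0.0018) and 2.47-fold higher than in SNU475 (1.30 ± 0.23, adjusted p = 0.000833). Both differences passed with any single library left out. FAM13B was 2.28-fold and 2.3-fold higher (1.19 ± 0.29, adjusted p = 0.00698, and 1.2 ± 0.3, adjusted p = 0.00594). Without PLC/PRF/5 control 1, its highest library, the adjusted p was 0.0916 and 0.0767, and without HLF control 1 the comparison with HLF gave 0.0647.

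FAM13A went the opposite way to its paralogue, with a level 3.15-fold lower in PLC/PRF/5 than in SNU475 (-1.66 ± 0.48, adjusted p = 0.0141). That call was lost without PLC/PRF/5 control 1 (adjusted p = 0.111) or SNU475 control 1 (0.0638). ATAD3A was 1.83-fold lower in PLC/PRF/5 than in SNU475 (-0.87 ± 0.22, adjusted p = 0.00618). The sum of the ATAD3 genes was not called there (-0.35 ± 0.22, adjusted p = 0.206), nor between the other untreated lines. The tRNA methyltransferase subunits were near the threshold. TRMT6 was lower in PLC/PRF/5 than in HLF (-0.61 ± 0.22, adjusted p = 0.043) and than in SNU475 (-0.60 ± 0.22, adjusted p = 0.0433), and TRMT61A lower than in SNU475 (-0.91 ± 0.35, adjusted p = 0.0489). With a single replicate term shared by all lines in the edgeR fit, these adjusted p became 0.0505, 0.0517 and 0.0519. Without HLF control 2 the TRMT6 difference from HLF was -0.46. Without SNU475 control 2 the differences from SNU475 were -0.38 for TRMT6 and -0.68 for TRMT61A. On the log2(TPM + 0.1) scale with limma, LANCL1 and FAM13B still passed in both comparisons (adjusted p = 0.0137 and 0.0198 against HLF, 0.00248 and 0.00486 against SNU475), and TRMT6, TRMT61A, FAM13A and ATAD3A did not (0.213 to 0.662).

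RSEM's effective length of a gene is weighted by its transcripts, so it moves when the mix of isoforms does. None of the 10 genes passed limma's test for a mean effect of lactate on it, which called 0.0674% of 14826 genes. SURF2 alone had an unadjusted p under 0.05, with an effective length 4.41% longer with lactate (unadjusted p = 0.044, adjusted p = 0.903). The largest change in size was that of FAM13B, at -14.6% (unadjusted p = 0.104). Its effective length in SNU475 was 5169 ± 33.9 bases (SD, n = 2) in the controls and 3679 ± 1004 with lactate, a wide spread. The mean lactate difference of FAM13B was -0.78 with the effective length as an offset, against -1.03 without it. On the TPM scale, where the scaling and the model differ as well, it was -0.67.

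Other genes of the same pathways were taken from 7 lists, 6 of which are described. No member of these 6 passed the main edgeR test. Over all tested genes the median log2 difference was 0.03 and 45.8% were below 0. An unadjusted p under 0.05 was found for 15.8% of them, 6.91% passed with the block and 5.16% with DESeq2. Of 33 tRNA methyltransferase and demethylase genes, 25 were below 0, with a median of -0.13, 3 had an unadjusted p under 0.05, a smaller share than among all genes, and those 3 passed with the replicate block and with DESeq2, a share near the background. They were TRMT2B, which makes a methyluridine in mitochondrial RNAs (-0.58 ± 0.14, main adjusted p = 0.0921), TRMU, which thiolates mitochondrial tRNAs (-0.62 ± 0.16, 0.101), and METTL1, the catalytic subunit of the tRNA methylguanosine enzyme (-0.61 ± 0.16, 0.102). Around SURF2, 13 of 18 genes of the 5S particle and large-subunit assembly were below 0 with a median of -0.21, and 4 had an unadjusted p under 0.05, against 15.8% of all genes. PES1 (-0.43 ± 0.11, adjusted p = 0.104), RRS1 (-0.72 ± 0.23, 0.159) and GTF3A (-0.25 ± 0.09, 0.233), which serve ribosome assembly or 5S RNA synthesis, came first. With the block, 3 of the 18 passed (PES1, RRS1 and BOP1), and with DESeq2 only PES1 did, against 6.91% and 5.16% of all genes.

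Around SURF1, 17 of 24 cytochrome c oxidase assembly genes were below 0 with a median of -0.10, and 5 had an unadjusted p under 0.05, against 15.8% of all genes. The first were COA3 (-0.44 ± 0.12, adjusted p = 0.105), COA8 (-0.35 ± 0.12, 0.194) and TACO1 (-0.29 ± 0.11, 0.223). With the block 2 passed, COA3 and COX20, and with DESeq2 only COA3, shares near the 6.91% and 5.16% of all genes. Around ATAD3, 17 of 28 tested genes of the mitochondrial nucleoid, proteases and inner membrane were below 0 with a median of -0.10, and 7 had an unadjusted p under 0.05, against 15.8% of all genes. POLG, the mitochondrial DNA polymerase (0.47 ± 0.11, adjusted p = 0.0909), and TFB1M (0.42 ± 0.14, 0.176) were higher in value and the prohibitin PHB1 lower (-0.29 ± 0.11, 0.218). With the block POLG alone passed, as it did with DESeq2, shares below the background.

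Around LANCL1 and LANCL2, 11 of 16 glutathione genes and LanC relatives were below 0 with a median of -0.15, and none had an unadjusted p under 0.05 or passed with the block or DESeq2. Those with the smallest p were GCLM, the modifier subunit of the glutathione-synthesis enzyme (-0.31 ± 0.15), CHAC2, which degrades glutathione (-0.40 ± 0.21), and MGST1, a membrane glutathione transferase (-0.29 ± 0.16), with adjusted p of 0.332 to 0.396. In the surfeit cluster all 4 further genes were below 0, with a median of -0.20, and none passed with the block or DESeq2. They were MED22 (-0.49 ± 0.22, unadjusted p = 0.0479, adjusted 0.311), SURF6 (-0.29 ± 0.15), SURF4 (-0.11 ± 0.11) and RPL7A (-0.08 ± 0.13).

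Genes next to the 10 on their chromosomes were also compared, with up to 3 tested protein-coding genes on each side in the RefSeq order. None of the 48 distinct neighbours passed the main edgeR test, 11 had an unadjusted p under 0.05 (15.8% of all genes) and 5 passed with the block, as did 6.91% of all genes (EIF5, CKB, GPCPD1, GPRIN3 and VWA1). DESeq2 also called 5, with CRLS1 in place of VWA1, where 5.16% of all genes were called. Beside TRMT61A, EIF5 stood at -0.51 (adjusted p = 0.145) and the creatine kinase gene CKB at 0.76 (0.193), in opposite directions. Beside SURF2, the next gene SURF4 had -0.11 (0.71) and the nucleolar gene REXO4 -0.43 (0.175). Beside LANCL2, EGFR had 0.07 (0.896) and VOPP1 -0.16 (0.507).

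Over the 12 libraries, the genes whose log2 CPM was most like each member's were sought among the 10104 genes that averaged 10 CPM or more. The Pearson correlation was highest with URM1 for LANCL2 (0.955), SUCLG2 for LANCL1 (0.977), ZMYND19 for TRMT61A (0.944), UTP14A for TRMT6 (0.964) and CHAMP1 for FAM13B (0.959). It was highest with FAM98C for FAM13A (0.882), RNF34 for ATAD3B (0.963), BRMS1 for ATAD3A (0.96), KAT2A for SURF2 (0.962) and CALCOCO2 for SURF1 (0.959). No partner was among the 3 most alike of its own gene. Each is the highest of the 10104 values over libraries that share lines and treatments, and is given as a description.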

How the data were processed

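RNA of the 12 libraries was sequenced from kits that keep strand. The authors' RSEM gene tables hold estimated counts (RSEM expected counts), TPM, FPKM and an effective length per gene, per the file headers. The deposited TPM and FPKM values are per-length levels made by the authors with RSEM, and FPKM was not used here. Per the submitters' processing notes, STAR and RSEM were among the tools, with no version, and the builds listed are of the mouse, while all 62757 rows per library carry human Ensembl identifiers. The human build is not given in the sources used here.

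From these, 47 Y copies were added to their X copies and the expected counts were rounded. edgeR 4.0.16 (R 4.3.3) used its default count filter (18355 genes kept), TMM factors of 0.794 to 1.165 and a robust quasi-likelihood fit of 6 groups (6 residual degrees of freedom, biological coefficient of variation 0.26). P-values were adjusted by Benjamini-Hochberg over all genes tested and called at 0.05. CPM uses the scaled library sizes. Effective lengths were log2-transformed, centred on each library's median and tested with limma 3.58.1 over 14826 genes of at least 1 CPM. Tested on simulated data at these sample sizes, the mean effect was called for 69% of 2-fold and 90% of 4-fold changed genes. At a total of this size, 3 counts correspond to 0.116 to 0.203 CPM, far below every level given.

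The labels number the 2 libraries of each group. Same-numbered libraries deviated together in HLF (correlation 0.129), SNU475 (0.54) and PLC/PRF/5 (0.233), each above the limit of 0.1 that was used. The numbers were therefore taken to pair them within a line. The main fit still has no block, so the standard errors given leave this pairing out. The fit with the number as a block is given where it changed a call. For lactate the block was a term within each line, which left 3 residual degrees of freedom. Between untreated lines it was a single term shared by all lines, which assumes the same shift in each. The PLC/PRF/5 libraries labelled 2 carry the number 3 in the name of their tables. Alternatives were other scalings, filters, DESeq2 1.42.0, limma-voom, TPM, an effective-length offset, summed ATAD3 genes and leaving out libraries. From each list described the 3 genes with the smallest p were named, and all 4 of the surfeit cluster. The list around FAM13A and FAM13B is not reported here. Other genes beside the 10 (CLN6, PTDSS1, BOP1, COX20 and the neighbours printed) were named after their values were seen. The genes, lists and tests were chosen with earlier results of these data known. Promoter windows, chromosomes and gene order come from RefSeq tables (GRCh38.p14), which held windows for 7 of the 10 genes.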

Additional observations from a re-analysis of the deposited data

How the results depend on the processing

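The number of genes called for the mean lactate effect, 77 in the main fit, depended on the setting far more than the values of the 10 genes did. It was 947 with DESeq2, 922 without the count filter, 530 without both SNU475 libraries numbered 2, 17 with the effective-length offset, 16 with limma-voom and 7 on the TPM scale. Leaving out single libraries gave 0 to 1493. The interaction, with 0 genes in the main fit, gave 136 without the count filter, 9 with DESeq2, 2 on the TPM scale and 0 to 203 with a library left out. Effective length, with 10 genes, gave 4 at a mean of at least 5 CPM and 19 to 83 with a library left out. The cause was not tested. With the replicate block that pairs the libraries by number, the mean effect called 1268 genes, the interaction 6 and effective length 0. For the mean effect this block added the calls of LANCL1, TRMT6 and ATAD3A. Between untreated lines a single replicate term shared by all lines was used, and it removed the calls of TRMT6 and TRMT61A. No other call of the 10 genes changed with either.

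Over 20 to 21 alternatives, the log2 lactate difference stayed between -1.23 and -0.86 for LANCL2, -1.32 and -0.90 for TRMT61A, -1.13 and -0.67 for FAM13B, -1.12 and -0.58 for ATAD3B and -0.98 and -0.77 for SURF2. The smallest ATAD3B value is the summed one. Among the paralogues and partners it stayed between 0.46 and 0.65 for LANCL1, -0.54 and -0.39 for TRMT6 and 0.13 and 0.69 for FAM13A. For ATAD3A it stayed between -0.49 and -0.27, leaving aside the summed value of -0.58, which includes ATAD3B. LANCL1 also passed without the count filter (edgeR adjusted p = 0.0139), where 922 genes were called against 77 in the main fit. TRMT6 and ATAD3A did not pass there. LANCL1, TRMT6 and ATAD3A all failed to pass with the effective-length offset, with limma-voom and on the TPM scale. Without SNU475 lactate replicate 1 that group holds 1 library, so only sizes are given for this fit. The log2 difference there was 0.55 for LANCL1, -0.49 for TRMT6 and -0.48 for ATAD3A. SURF1 turned from -0.04 to 0.06 on the TPM scale, and ranged from -0.16 to 0.12 with a library left out. With 2 libraries a group, 69% of simulated 2-fold changes passed, so a gene that did not pass may still differ.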
